A study of Homo sapiens with 40 samples.

Results

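The transcriptomes of cells depleted of CTR9 and of cells depleted of CDC73 were set directly against each other while MYC was switched on. The comparison takes the 16 libraries with Dox and a hairpin against either gene, of 40 libraries in the series, and averages the hairpins of each target. It therefore asks in what the loss of one subunit of the same complex differs from the loss of another, without a control hairpin in the contrast. The cells were U2OS, from a human osteosarcoma, with an added MYC gene under doxycycline control. They were infected with pGIPZ, a lentiviral vector for short hairpin RNAs, and kept in puromycin at 0.2 µg/ml, and Dox was given at 1 µg/ml for 24 h. The groups were shCTR9#3 and shCTR9#5 (hairpins 3 and 5 against CTR9) and shCDC73#3 and shCDC73#4 (hairpins 3 and 4 against CDC73), with 4 libraries each. All of them carry the induced MYC gene and a hairpin vector. The same 4 hairpins in ethanol (EtOH, 16 libraries) served as a separate set of libraries, and 4 shNTC libraries (a control hairpin) in Dox are given as levels only. No group is free of a vector, and the labels give replicate numbers but do not say whether the libraries of a group came from separate cultures.

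The PAF1 complex binds RNA polymerase II while it transcribes, helps it move through chromatin, and promotes histone marks of active genes such as ubiquitin on histone H2B. CTR9 is its scaffold, on which PAF1, LEO1, RTF1 and CDC73 assemble, and CDC73 (parafibromin) is a tumour suppressor that reaches both the polymerase and factors of transcript processing. The human complex also holds SKIC8 (WDR61), which it shares with the SKI complex, a helper of the cytoplasmic RNA exosome that includes SKIC3 and SKIC2. MYC is a transcription factor that binds the E-box CACGTG and drives genes of growth and ribosome production, and it can recruit the PAF1 complex.

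Total reads per library ran from 877323 to 1321226, with a median of 1209896, and the ranges of the 4 groups overlapped. Levels are given as CPM, the read count scaled by library size. Differences are log2 fold changes ± SE of shCTR9 over shCDC73 unless another pair is named. A gene rose or fell where the p of edgeR's quasi-likelihood test, adjusted by Benjamini-Hochberg over all 11812 genes tested, was under 0.05. The summed level of osteoblast and mesenchymal markers was 1013 to 1132 CPM in shCTR9#3, 1165 to 1275 CPM in shCTR9#5, 931 to 1032 CPM in shCDC73#3 and 1264 to 1382 CPM in shCDC73#4 libraries, so it separated the hairpins of each target. VIM had the most reads of its 21 genes, 10793 in the 16 libraries. Of the 21 genes, BGLAP (osteocalcin), COL1A2 and THY1 had 0 reads in all 16 libraries, and the osteoblast genes SP7, IBSP and ALPL had 6, 4 and 14 reads in total. Other bone genes were read, with 4424 reads of SPARC (osteonectin), 1008 of COL1A1, 336 of RUNX2, the transcription factor of the lineage, and 322 of SPP1 (osteopontin), so the markers of this osteosarcoma line's lineage were read in part. In bulk RNA, fewer cells of a type and less RNA per cell cannot be told apart. Blood and endothelial markers were near 0, with sums from 3.27 to 14.8 CPM over the 4 groups and 5 of 14 genes (among them CD3E, HBB, LYZ and PECAM1) at 0 in all 16 libraries. Epithelial markers summed to 257 to 376 CPM. Most of their reads were of KRT18 (3722 in the 16 libraries) and KRT8 (1035), with 282 of CLDN4 and 142 of EPCAM. No other gene of this list had more than the 27 reads of CDH1, and ELF3, KRT5 and KRT14 were at 0.

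Each hairpin lowered its own target. CTR9 had 22.0, 24.6, 20 and 27.1 CPM in shCTR9#3 and 17.2, 24.0, 21.2 and 20.3 CPM in shCTR9#5 libraries, against 190, 185, 195 and 216 CPM in shCDC73#3 and 122, 140, 157 and 144 CPM in shCDC73#4 libraries. All 8 shCTR9 libraries lay under all 8 shCDC73 libraries, and the log2 fold change was -2.90 ± 0.10 (adjusted p = 1.08e-34). CTR9 averaged 87.9 ± 10.4 CPM in shNTC cells (SD, n = 4), so its level was 25.1% of shNTC with the CTR9 hairpins and 192% of shNTC with the CDC73 hairpins. The distance between the targets for CTR9 thus holds a lower level in shCTR9 cells and a higher one in shCDC73 cells. CDC73 had 31.0, 29.3, 29.5 and 23.7 CPM in shCTR9#3 and 38.6, 35.9, 27.9 and 38.9 CPM in shCTR9#5 libraries, against 6.57, 9.52, 3.27 and 6.95 CPM in shCDC73#3 and 8.50, 13.9, 11.7 and 4.16 CPM in shCDC73#4 libraries. Its log2 fold change was 1.98 ± 0.18 (adjusted p = 1.18e-12), and its level was 108% of shNTC with the CTR9 hairpins and 27.4% of shNTC with the CDC73 hairpins.

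**Figure D1:**
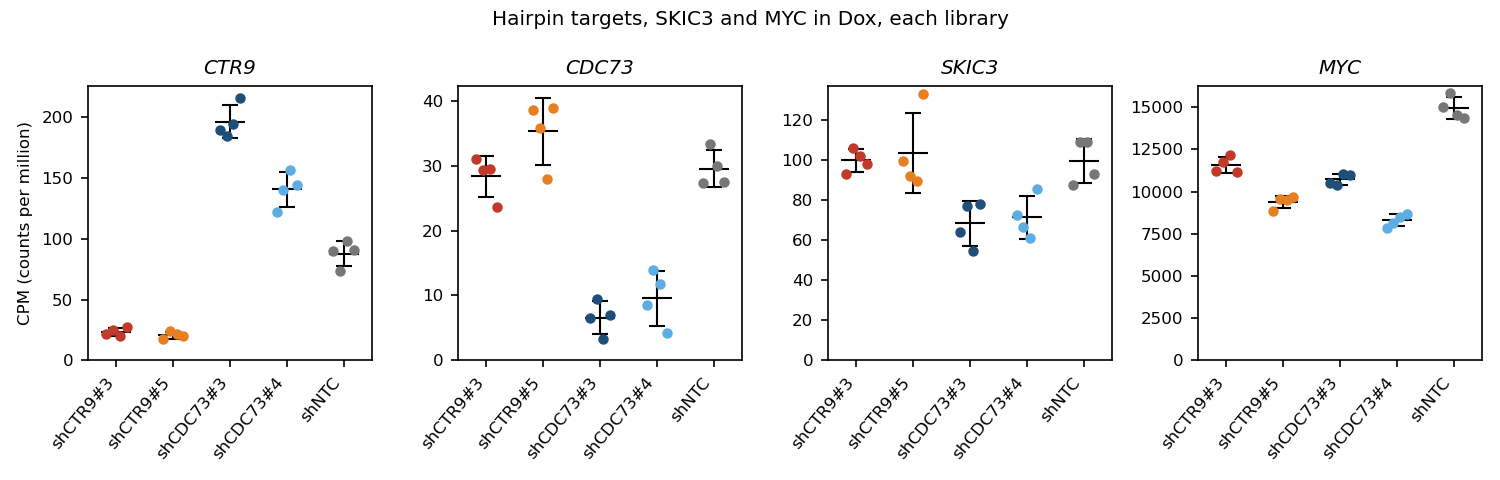
CPM of CTR9, CDC73, SKIC3 and MYC in every Dox library, with shCTR9#3 and shCTR9#5 left of shCDC73#3, shCDC73#4 and shNTC. Points are libraries and bars are the mean ± SD of 4 libraries. CTR9 is at 23.4 CPM in shCTR9#3 and 20.7 CPM in shCTR9#5 cells, and at 196 CPM in shCDC73#3 and 141 CPM in shCDC73#4 cells, above the 87.9 CPM of shNTC.

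Of the other 4 subunits of the complex, none passed the test. PAF1 differed by 0.03 ± 0.09 (adjusted p = 0.843), LEO1 by 0.20 ± 0.25 (adjusted p = 0.642), RTF1 by -0.12 ± 0.07 (adjusted p = 0.259) and SKIC8 by 0.10 ± 0.12 (adjusted p = 0.595). LEO1 was read at only 7.71 to 9.97 CPM on average in the 4 groups, which limits what can be seen for it. SKIC3, a subunit of the SKI complex, was higher after CTR9 loss. It had 92.9, 106, 102 and 98.2 CPM in shCTR9#3 and 99.3, 92.1, 89.3 and 133 CPM in shCTR9#5 libraries, against 64.1, 77.0, 54.5 and 78.2 CPM in shCDC73#3 and 72.3, 66.5, 60.9 and 85.7 CPM in shCDC73#4 libraries. The groups of the targets did not overlap, and the log2 fold change was 0.53 ± 0.09 (adjusted p = 2.14e-05). The shCTR9 libraries lay near the 99.7 CPM of shNTC. Over the list of PAF1 and SKI complex genes, 2 of 8 rose and 1 fell, with a median log2 fold change of 0.07, and those 3 are CDC73, SKIC3 and CTR9.

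MYC mRNA differed more between hairpins than between targets. In Dox it had 11224, 11743, 12183 and 11141 CPM in shCTR9#3 and 8818, 9565, 9493 and 9647 CPM in shCTR9#5 libraries, against 10516, 10382, 11050 and 10951 CPM in shCDC73#3 and 7854, 8153, 8518 and 8641 CPM in shCDC73#4 libraries. The ranges of the targets overlapped, and the contrast of their means was 0.14 ± 0.04 (adjusted p = 0.00763, or 0.0671 without replicate 3 of every group). It was -0.01 with shCTR9#5 alone as the CTR9 group (adjusted p = 0.945) and -0.04 with shCDC73#3 alone as the CDC73 group (adjusted p = 0.592). Between hairpins, MYC was lower by -0.30 ± 0.06 in shCTR9#5 than in shCTR9#3 (adjusted p = 0.000985) and by -0.37 ± 0.06 in shCDC73#4 than in shCDC73#3 (adjusted p = 1.14e-06). Without Dox, MYC averaged 677 and 549 CPM in shCTR9#3 and shCTR9#5, and 666 and 524 CPM in shCDC73#3 and shCDC73#4 cells. The counts do not part reads of the induced gene from those of the resident one.

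Across the transcriptome, 1953 of 11812 genes (16.5%) differed between shCTR9 and shCDC73 cells in Dox. Of these, 1031 were higher (8.73%) and 922 lower (7.81%) in shCTR9 cells, the median log2 fold change over all genes was -0.0049, and 251 of the calls reached a 1.5-fold change. How many genes differed depended on which hairpins were paired. shCTR9#3 differed from shCDC73#3 in 1374 genes (11.6%; 5.65% higher and 5.99% lower) and from shCDC73#4 in 1468 genes (12.4%; 6.49% higher and 5.93% lower). shCTR9#5 differed from shCDC73#3 in 2497 genes (21.1%; 10% higher and 11.1% lower) and from shCDC73#4 in 616 genes (5.22%; 2.69% higher and 2.52% lower).

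The hairpins of one target served as a yardstick. shCTR9#5 differed from shCTR9#3 in 74 genes (0.626%), of which 23 were higher (0.195%) and 51 lower (0.432%). shCDC73#4 differed from shCDC73#3 in 2225 genes (18.8%), of which 994 were higher (8.42%) and 1231 lower (10.4%), more than the number called between the targets. The contrast between targets and that between CDC73 hairpins shared 556 called genes, 28.5% of the calls between targets and 25.0% of those between the CDC73 hairpins. Both use the shCDC73 libraries. With the hairpin as a random block in limma-voom, where libraries of a hairpin had a correlation of 0.169, 200 genes remained called, 117 higher and 83 lower. Of the 94 genes given here with a value for this contrast, 37 lost their call with that block, among them MYC, AEBP1, MRPS14 and many of the list genes. With counts summed per hairpin, which leaves 2 sums against 2, 1 gene was called (CTR9, lower) and 1010 had an unadjusted p under 0.05.

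**Figure D2:**
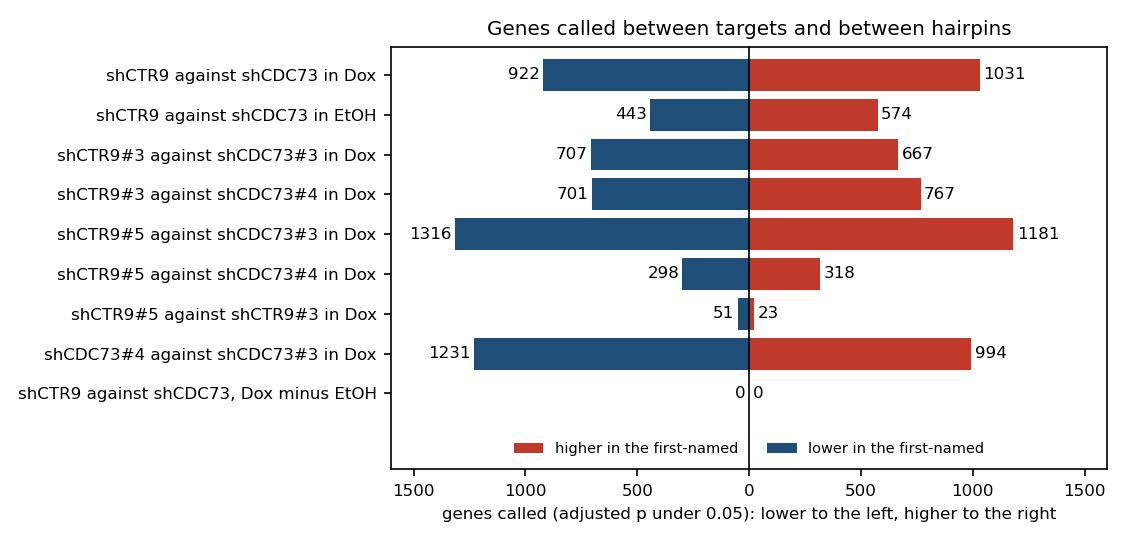
Number of genes called at an adjusted p under 0.05 in each comparison, with genes higher in the first-named group to the right and genes lower in it to the left. The 2225 genes between shCDC73#4 and shCDC73#3 (994 and 1231) outnumber the 1953 between the targets (1031 and 922), and the test of Dox minus EtOH called 0.

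To find what did not hang on a hairpin, genes were taken that were called in each of the 4 pairs of a shCTR9 with a shCDC73 hairpin and whose 8 shCTR9 libraries all lay on one side of the 8 shCDC73 libraries. There were 60 such genes (0.508% of those tested), 41 higher (0.347%) and 19 lower (0.161%) in shCTR9 cells. Called in all 4 pairs were 106 genes, and 155 genes (1.31%) had all 16 libraries separated, 96 higher (0.813%) and 59 lower (0.499%). The count and the members moved with single replicates. The count was 17 without replicate 4 of every group, 28 without replicate 3, 31 without replicate 2 and 68 without replicate 1. Of these, 14, 22, 22 and 38 were among the 60. It lay between 41 and 72 when 1 library was left out.

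The EtOH libraries, in which MYC was not switched on, gave the same directions. There, 1017 of 11736 genes were called (8.67%), 574 higher (4.89%) and 443 lower (3.77%). Without 3 EtOH libraries in which short transcripts were read more often (shCTR9#3 replicate 1 and shCDC73#4 replicates 1 and 3), 2170 were called. All 60 genes had the same sign in EtOH as in Dox and 50 of them (83.3%) were called there. Of all 1927 Dox calls that were tested in EtOH, 1889 had the same sign and 645 (33.5%) were called, and over all 11448 genes tested in both, 76.5% had the same sign. The libraries differ between these contrasts and the hairpins are the same. A test of the difference itself, shCTR9 against shCDC73 in Dox minus EtOH, called 0 of 12309 genes (0%) with edgeR and 0 with DESeq2, and 376 genes (3.05%) had an unadjusted p under 0.05. No gene can therefore be called particular to the state with MYC on. For CTR9 and CDC73 the Dox contrast minus the EtOH contrast was 0.14 ± 0.13 and 0.14 ± 0.27 (adjusted p = 1 for each).

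**Figure D3:**
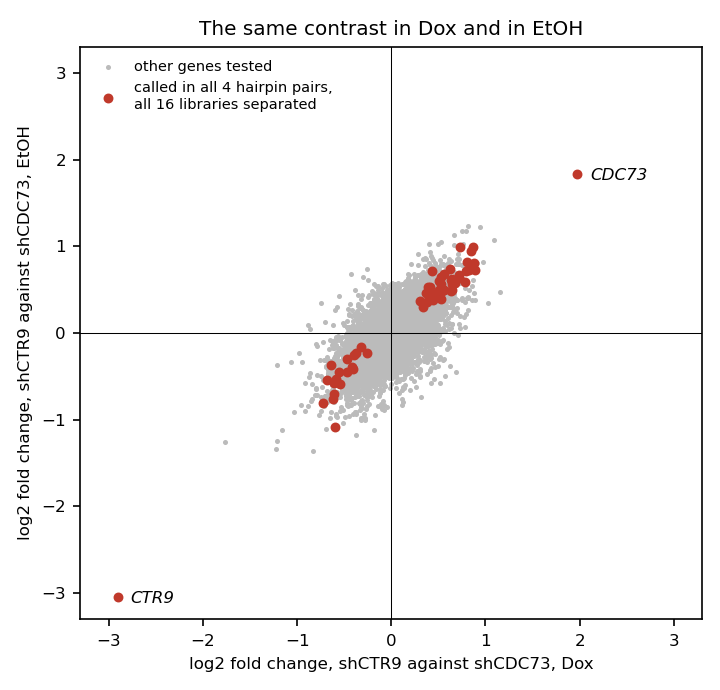
Log2 fold change of shCTR9 against shCDC73 in Dox (x axis) and in EtOH (y axis) for each gene tested in both, in grey, with the 60 genes called in all hairpin pairs and separated in all 16 Dox libraries in red. All 60 have the same sign on both axes, with CTR9 and CDC73 at the far ends.

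Among the genes higher in shCTR9 cells beyond CDC73 itself, MRPL50 and GATC act in mitochondrial translation. MRPL50, a protein of the large mitochondrial ribosome subunit, had 73.3, 93.2, 99.8 and 93.9 CPM in shCTR9#3 and 102, 95.1, 72.6 and 83.5 CPM in shCTR9#5 libraries, against 72.3, 53.6, 65.3 and 56.5 CPM in shCDC73#3 and 35.7, 41.0, 44.5 and 38.3 CPM in shCDC73#4 libraries. The highest shCDC73 library came to just under the lowest shCTR9 library, and the log2 fold change was 0.85 ± 0.10 (adjusted p = 1.45e-09). GATC, a subunit of the amidotransferase that finishes mitochondrial glutamine tRNA, had 96.1, 112, 108 and 99.9 CPM in shCTR9#3 and 91.9, 92.8, 94.9 and 99.0 CPM in shCTR9#5 libraries, against 80.5, 68.3, 68.6 and 72.2 CPM in shCDC73#3 and 27.2, 47.2, 45.6 and 39.9 CPM in shCDC73#4 libraries. Its difference was 0.88 ± 0.09 (adjusted p = 8.65e-11), and it also differed between the CDC73 hairpins, by -0.87 in shCDC73#4 against shCDC73#3. GATC shares 1729 exon bases with SRSF9 in the annotation, so its reads may be split with that gene. MRPS14, of the small mitochondrial ribosome subunit, and MTG2, a GTPase of mitochondrial ribosome assembly, were higher by 0.64 ± 0.13 and 0.41 ± 0.08, and both were picked out after their values were seen. MRPS14 shares 351 exon bases with CACYBP.

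ZNF24, CBFB and DDX46 act in transcription and splicing. ZNF24, a zinc finger repressor, had 121, 146, 132 and 142 CPM in shCTR9#3 and 127, 141, 132 and 138 CPM in shCTR9#5 libraries, against 69.0, 82.2, 82.8 and 101 CPM in shCDC73#3 and 74.0, 86.6, 77.2 and 84.1 CPM in shCDC73#4 libraries. The shCTR9 libraries lay around the shNTC level of 136 CPM, and the log2 fold change was 0.72 ± 0.08 (adjusted p = 6.65e-10). CBFB, the partner of the RUNX transcription factors, had 174, 157, 186 and 168 CPM in shCTR9#3 and 194, 175, 190 and 192 CPM in shCTR9#5 libraries, against 102, 119, 129 and 125 CPM in shCDC73#3 and 103, 120, 104 and 92.4 CPM in shCDC73#4 libraries (0.68 ± 0.07, adjusted p = 8.65e-11). DDX46, a helicase of early spliceosome assembly, had 200, 213, 211 and 195 CPM in shCTR9#3 and 218, 211, 198 and 193 CPM in shCTR9#5 libraries, against 163, 131, 115 and 119 CPM in shCDC73#3 and 145, 146, 123 and 105 CPM in shCDC73#4 libraries (0.64 ± 0.07, adjusted p = 7.88e-10). For both, the hairpins of a target overlapped each other. Separation of every shCTR9 from every shCDC73 library was a condition for taking the 60 genes and is no further result for those named from them. DDX46 shares 236 exon bases with C5orf24. MTREX, the helicase that feeds RNA to the nuclear exosome, was likewise picked out from the 60 after its values were seen. It had 135 to 152 CPM in shCTR9#3 and 162 to 166 CPM in shCTR9#5 libraries, against 91.2 to 131 CPM in shCDC73#3 and 105 to 123 CPM in shCDC73#4 libraries. Its difference was 0.45 ± 0.07 (adjusted p = 7.06e-06), and it had 202 CPM in shNTC cells. MTREX shares 481 exon bases with PLPP1.

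Other members of the 60, named after their values were seen, also act on RNA or on transcription. Roles were not counted over the 60 or over all genes tested. Grouping the named genes by role, here and in the paragraphs beside, therefore shows no excess of a role. MPHOSPH6, a cofactor of the nuclear exosome, was higher by 0.56 ± 0.10, and DDX23, a spliceosome helicase, by 0.40 ± 0.07. POLR3E, a subunit of RNA polymerase III, was higher by 0.64 ± 0.10, NPAT, the coactivator of replication-dependent histone genes, by 0.63 ± 0.11, and ECD, a factor that helps splicing, by 0.55 ± 0.08. NPAT shares 143 exon bases with ATM.

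GPAT3, STAC and NSF have other roles. GPAT3, an enzyme of triglyceride synthesis, had 82.3, 81.6, 53.2 and 85.5 CPM in shCTR9#3 and 82.9, 70.4, 77.1 and 74.6 CPM in shCTR9#5 libraries, against 36.2, 32.9, 40.3 and 45.2 CPM in shCDC73#3 and 45.9, 44.1, 50.3 and 52.4 CPM in shCDC73#4 libraries (0.82 ± 0.10, adjusted p = 2.23e-08). Here the shCDC73 libraries lay around the shNTC level of 48.4 CPM. STAC, an adaptor protein of calcium channels, had 75.1 to 111 CPM in shCTR9#3 and 85.3 to 110 CPM in shCTR9#5 libraries, against 41.4 to 60.9 CPM in shCDC73#3 and 56.6 to 75.0 CPM in shCDC73#4 libraries (0.73 ± 0.09, adjusted p = 4.9e-08). NSF, the ATPase that takes apart SNARE complexes after membrane fusion, had 73.2 to 102 CPM in shCTR9#3 and 82.0 to 110 CPM in shCTR9#5 libraries, against 44.4 to 66.6 CPM in shCDC73#3 and 55.8 to 65.5 CPM in shCDC73#4 libraries (0.65 ± 0.09, adjusted p = 8.86e-07). The remaining genes of the largest 15 higher were TIGD1 (0.89 ± 0.15), ENSG00000262670 (0.87 ± 0.14), FAM217B (0.81 ± 0.12), NUDT13 (0.80 ± 0.14), ARL14EP (0.78 ± 0.13) and C15orf61 (0.72 ± 0.15). None of these averaged over 44.3 CPM in a group of the contrast, and TIGD1 shares 541 exon bases with EIF4E2. ENSG00000262670 had no symbol in the tables used.

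Beside CTR9 itself, HSPA5, PLOD3, MRC2 and AEBP1, which act in the endoplasmic reticulum or on collagen, were lower in shCTR9 cells. HSPA5 (BiP), the main chaperone of the endoplasmic reticulum, had 1147, 1087, 1234 and 1077 CPM in shCTR9#3 and 1080, 1080, 1062 and 1022 CPM in shCTR9#5 libraries, against 1636, 1433, 1633 and 1606 CPM in shCDC73#3 and 1365, 1304, 1448 and 1302 CPM in shCDC73#4 libraries. By their means, both targets stood above the 987 CPM of shNTC. The log2 fold change was -0.41 ± 0.05 (adjusted p = 5.04e-09). PLOD3, a lysyl hydroxylase of collagen, had 151, 121, 154 and 146 CPM in shCTR9#3 and 148, 130, 136 and 126 CPM in shCTR9#5 libraries, against 227, 218, 230 and 228 CPM in shCDC73#3 and 184, 182, 207 and 199 CPM in shCDC73#4 libraries (-0.59 ± 0.06, adjusted p = 7.55e-10). It shares 429 exon bases with ZNHIT1. MRC2, a receptor that takes up collagen, and AEBP1, a secreted protein of collagen fibres, fell by 0.47 ± 0.09 and 0.40 ± 0.08.

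The enzymes PFKL, HMOX1 and PGD and the secreted receptor TNFRSF11B fell as well. PFKL, the liver-type phosphofructokinase of glycolysis, had 31.0, 23.9, 33.3 and 23.7 CPM in shCTR9#3 and 29.5, 30.7, 30.2 and 34.1 CPM in shCTR9#5 libraries, against 44.4, 44.1, 41.4 and 40 CPM in shCDC73#3 and 50.2, 42.5, 58.5 and 49.1 CPM in shCDC73#4 libraries (-0.64 ± 0.11, adjusted p = 4.08e-05). The shCDC73 libraries lay around the shNTC level of 45.5 CPM. HMOX1, heme oxygenase, a target of the antioxidant factor NRF2, had 69.2, 63.9, 69.4 and 60.1 CPM in shCTR9#3 and 57.4, 58.4, 50.3 and 51.1 CPM in shCTR9#5 libraries, against 85.5, 87.4, 101 and 71.3 CPM in shCDC73#3 and 91.0, 88.1, 91.3 and 87.4 CPM in shCDC73#4 libraries (-0.55 ± 0.09, adjusted p = 6.5e-06). PGD, an NADPH-making enzyme of the pentose phosphate pathway, fell by 0.39 ± 0.07. TNFRSF11B (osteoprotegerin), a secreted decoy receptor that blocks RANKL, had 22.8, 30.8, 23.8 and 27.9 CPM in shCTR9#3 and 30.4, 28.4, 25.7 and 25.1 CPM in shCTR9#5 libraries, against 38.6, 39.8, 35.9 and 44.3 CPM in shCDC73#3 and 43.4, 43.3, 43.3 and 37.5 CPM in shCDC73#4 libraries (-0.59 ± 0.12, adjusted p = 0.000189). Both targets lay above its 9.98 CPM in shNTC cells.

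H2AC11, a histone H2A gene, had 43.2, 46.2, 46.6 and 45.7 CPM in shCTR9#3 and 50.9, 47.9, 49.1 and 43.8 CPM in shCTR9#5 libraries, against 75.6, 75.3, 78.4 and 72.2 CPM in shCDC73#3 and 65.5, 74.2, 71.4 and 57.4 CPM in shCDC73#4 libraries (-0.61 ± 0.09, adjusted p = 3.5e-06). Histone genes have near-identical copies, so its reads may be split among them. The other genes of the largest 15 lower were PHTF1 (-0.73 ± 0.12), STK36, a kinase of cilia and Hedgehog signalling (-0.68 ± 0.10), SPATA20 (-0.62 ± 0.10), DYNC2I2, a chain of the cilium dynein (-0.61 ± 0.09), MAGED1 (-0.56 ± 0.08) and TCFL5 (-0.47 ± 0.10). STK36 and SPATA20 share 260 and 478 exon bases with RNF25 and EPN3.

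**Figure D4:**
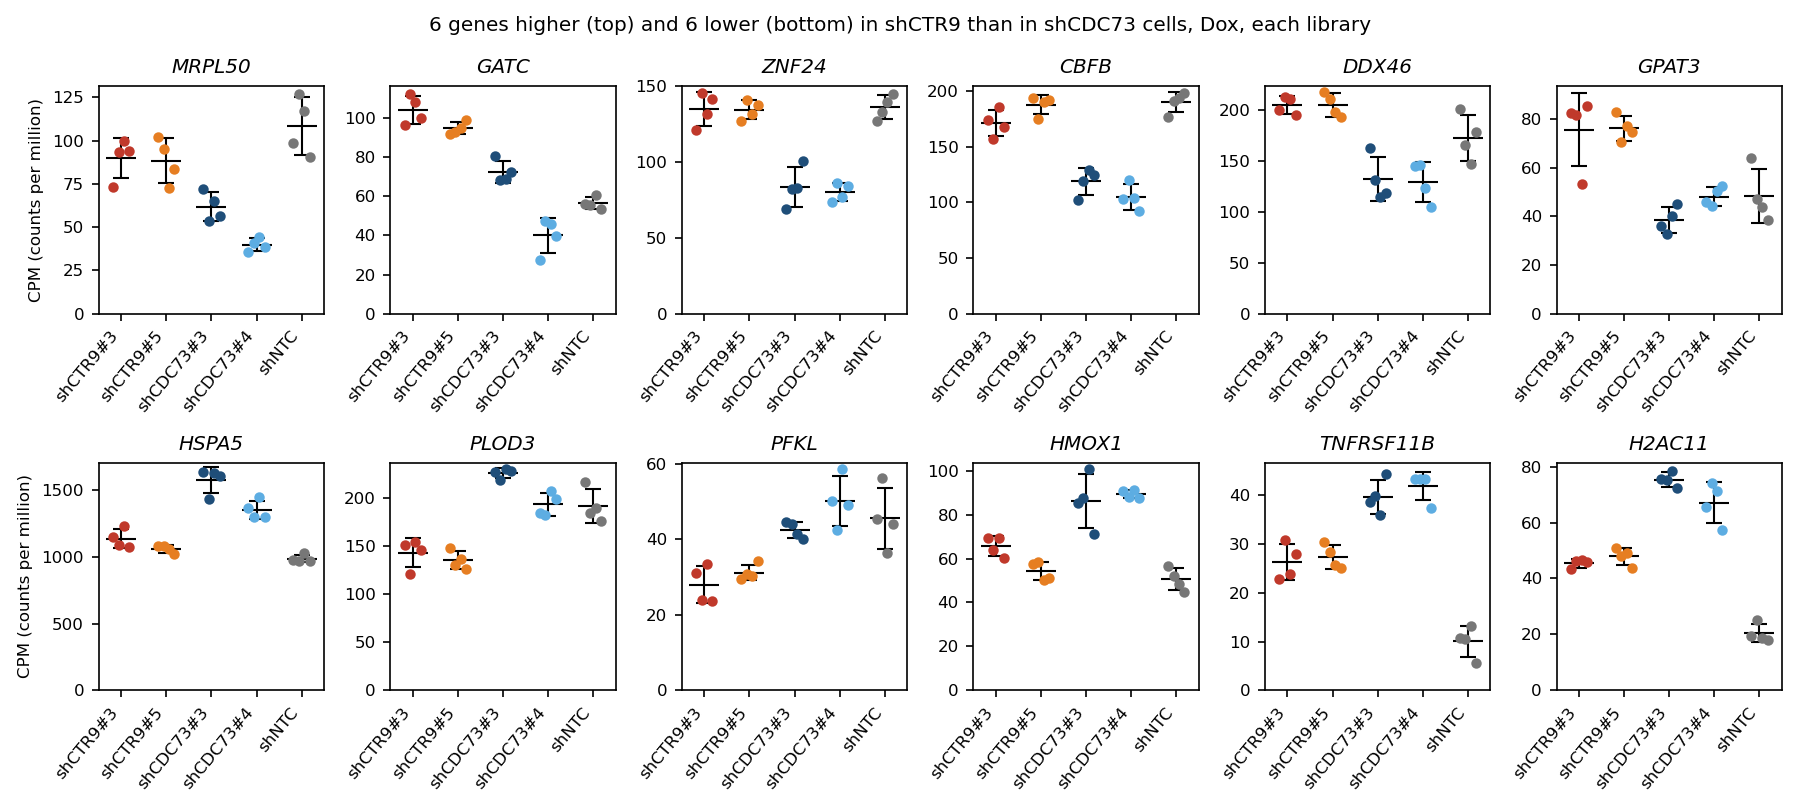
CPM in every Dox library of 6 genes higher (top row) and 6 lower (bottom row) in shCTR9 than in shCDC73 cells, with the shCTR9 hairpins left of the shCDC73 hairpins and shNTC. Points are libraries and bars the mean ± SD of 4 libraries. By their means, HSPA5, HMOX1, TNFRSF11B and H2AC11 are highest in shCDC73 and lowest in shNTC cells, while ZNF24 and CBFB in shCTR9 cells are near their shNTC level.

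Beside the shNTC libraries, the 60 genes fell into several patterns. Of the 41 higher genes, the shNTC mean was above the means of both targets for 11, below both for 8, between them and nearer shCTR9 for 14 and between them and nearer shCDC73 for 8. Of the 19 lower genes, it was above both for 4, below both for 6, nearer shCDC73 for 7 and nearer shCTR9 for 2. A gene higher in shCTR9 than in shCDC73 cells was thus not always one that stood above the control hairpin after CTR9 loss.

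Promoters of HSPA5 and SKIC3 are shown because HSPA5 had the most reads of the 19 lower genes and SKIC3 belongs to the complex that shares a subunit with the PAF1 complex. Both are from RefSeq on GRCh38.p14, run 5′ to 3′ on the strand of the gene, and hold 250 bases before and 50 after the start site. HSPA5 lies on the minus strand at chr9:125241294-125241593, and the capitals mark the ER stress element, CCAAT and CCACG with 9 bases between them, which binds factors of the unfolded protein response. SKIC3 lies on the minus strand at chr5:95554928-95555227, and the capitals mark the E-box CACGTG.
HSPA5: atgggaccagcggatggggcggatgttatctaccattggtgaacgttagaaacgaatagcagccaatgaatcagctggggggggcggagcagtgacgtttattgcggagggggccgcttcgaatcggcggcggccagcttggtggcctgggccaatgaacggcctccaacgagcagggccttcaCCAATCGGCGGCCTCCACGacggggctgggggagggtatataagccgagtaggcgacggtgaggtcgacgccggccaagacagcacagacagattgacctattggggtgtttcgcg
SKIC3: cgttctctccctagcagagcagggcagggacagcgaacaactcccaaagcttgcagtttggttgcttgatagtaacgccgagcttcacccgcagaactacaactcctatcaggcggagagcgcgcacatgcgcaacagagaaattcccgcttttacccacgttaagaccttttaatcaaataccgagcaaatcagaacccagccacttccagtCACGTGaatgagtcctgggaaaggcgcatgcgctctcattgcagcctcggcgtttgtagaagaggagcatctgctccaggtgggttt
The ER stress element, searched on both strands, began at position -66 from the start site of HSPA5 and was in 27 of 35116 promoters (0.0769%). It was in 6 of 24 matched promoters of the list of unfolded protein response genes (25.0%). The E-box, whose letters are the same on both strands, was in 2548 of 35116 promoters (7.26%), in 5 of 34 matched promoters of the higher genes (14.7%) and in 0 of 13 of the lower genes. The 5 were SKIC3, POLR3E, ADAR, SRFBP1 and EIF4H. The 35116 promoters were not limited to tested genes and were not reduced to a single promoter per gene, as the gene sets were. The shares over all promoters and over the gene sets are therefore not of like sets, and their difference was not tested. The matches describe the letters in these windows and not binding.

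Gene lists that cover the biology of the complex, of MYC and of stress were then counted, each beside the 8.73% of all tested genes that were higher and the 7.81% that were lower, and the median of -0.0049 over all genes. Of the list genes named here, those also called with the hairpin as a random block were WDR75, RRP1B, DDX18, RPL28, RPS18, MANF, HSPA5, SLC7A5, SERPINE2, LAMB1, MMP14, MCM5, BUB1, H2AX, H2AC11, GAPDH, PFKL, PGAM1, HMOX1, PGD and the subunits CTR9, CDC73 and SKIC3. Over all lists, 210 members were called between the targets, and 8 higher and 21 lower members were called with that block. Some of these genes share exon bases with others in the annotation, so their reads may be split. NOP2 shares 2550, ATG9A 1833, MCM2 1113, SLC1A5 780, MRC2 676, EDEM1 653, CENPT 596 and HEXIM1 520 bases with another gene. Shorter overlaps, from 62 to 427 bases, were found for CTR9, CDC73, SKIC8, FAM217B, NUDT13, C15orf61, TCFL5, AEBP1, ENY2, MXD4, MYCL, RPL28, RPL3, SLC7A5, SHMT2, LAMB1, SREBF2, GAPDH, DPYSL2, SESN1, SERTAD4 and SRFBP1.

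Genes of transcription itself moved both ways. Among elongation factors and Integrator subunits, 4 of 41 rose and 7 fell, with a median of -0.02, and 0 were called either way with the hairpin as a random block. Against shCDC73#3, 6 were lower in shCTR9#3 and 11 in shCTR9#5 cells, and against shCDC73#4, 0 and 1. HEXIM1, which holds the elongation kinase P-TEFb inactive, had 257, 233, 254 and 235 CPM in shCTR9#3 and 221, 208, 214 and 197 CPM in shCTR9#5 libraries, against 523, 462, 448 and 431 CPM in shCDC73#3 and 234, 255, 261 and 231 CPM in shCDC73#4 libraries. The high libraries were those of shCDC73#3 alone, the shCDC73#4 libraries overlapped those of shCTR9#3, and shNTC had 58.5 CPM. The log2 fold change of -0.58 ± 0.06 (adjusted p = 3.19e-11) had an adjusted p of 0.141 with the hairpin as a random block. GTF2F1, a subunit of TFIIF, ELL2, of the super elongation complex, and INTS1, the largest Integrator subunit, fell by 0.30 ± 0.07, 0.27 ± 0.07 and 0.22 ± 0.06. The 7 lower members became 4 without shCTR9#3 replicate 2 or without shCDC73#4 replicate 4. Among genes of H2B ubiquitination and co-transcriptional histone methylation, 2 of 28 rose and 1 fell, near the background, the lower count ran from 0 to 4 when 1 library was left out, and ENY2, of the SAGA deubiquitinating module, rose by 0.34 ± 0.07. Among 3′ end cleavage and termination genes, 3 of 23 rose and 1 fell.

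The MYC network and its growth targets did not move one way. Of the MYC, MAX, MXD and MLX network, 2 of 18 rose and 2 fell, among them MXD4 and MYCL, which fell by 0.46 ± 0.11 and 0.48 ± 0.13. In shCTR9#3 and shCDC73#4 libraries these overlapped, with 38.9 to 46.2 and 32.8 to 44.9 CPM of MXD4, and 25.4 to 37.5 and 25.5 to 41.6 CPM of MYCL. Against shCDC73#3, 1 member was lower and 1 higher in shCTR9#3, and 9 lower and 3 higher in shCTR9#5 cells. With shCDC73#4 as the other side, 1 was lower and 1 higher in shCTR9#3, and 0 lower and 1 higher in shCTR9#5 cells. Without shCTR9#3 replicate 4, 1 rose and 4 fell, the higher count was also 1 without shCDC73#3 replicate 2 or shCTR9#5 replicate 4, and 0 were called either way with the hairpin as a random block. Of the common MYC targets, 4 of 33 rose and 6 fell, and the lower count ran from 2 (without shCTR9#3 replicate 2) to 6 when 1 library was left out. Of ribosome biogenesis genes, 8 of 44 rose and 5 fell, with a median of -0.0043. WDR75, RRP1B and DDX18, which act in rRNA processing, rose by 0.44 ± 0.08, 0.37 ± 0.06 and 0.34 ± 0.06, and NOP2, an rRNA methyltransferase, fell by 0.27 ± 0.06. In shCTR9#5 and shCDC73#4 libraries WDR75 overlapped, with 107 to 114 and 94 to 117 CPM. DDX18 overlapped there too, with 346 to 379 and 297 to 361 CPM. The 5 lower members became 3 without shCTR9#3 replicate 4 and 0 with the hairpin as a random block. Against shCDC73#3, 5 were lower in shCTR9#3 and 10 in shCTR9#5 cells, and against shCDC73#4, 0 in each. Higher members numbered 9 in shCTR9#3 and 7 in shCTR9#5 cells against shCDC73#3, and 6 and 0 against shCDC73#4.

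Cytoplasmic ribosomal protein genes were lower in shCTR9 cells by small amounts. Of 52 tested, 18 fell (34.6%) and 0 rose, with a median of -0.12. RPL28 had 139, 138, 142 and 140 CPM in shCTR9#3 and 156, 141, 160 and 154 CPM in shCTR9#5 libraries, against 242, 140, 196 and 190 CPM in shCDC73#3 and 180, 195, 226 and 214 CPM in shCDC73#4 libraries. It fell by 0.44 ± 0.07 (adjusted p = 1.75e-05), while shCDC73#3 replicate 2 lay among the shCTR9 libraries. RPL35, RPS18 and RPL3 fell by 0.33 ± 0.07, 0.28 ± 0.05 and 0.20 ± 0.05. The count of lower genes ran from 12 to 24 when 1 library was left out and was 2 with the hairpin as a random block. In EtOH 0 of 52 were called, with a median of -0.10. These genes are short and have many processed copies, which the counting could mix.

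Some genes of the endoplasmic reticulum and of amino acid supply were lower too. Of unfolded protein response and chaperone genes, 8 of 25 fell and 1 rose (36% called), with a median of -0.16. Against shCDC73#3, 7 were lower in shCTR9#3 and 14 in shCTR9#5 cells, and against shCDC73#4, 4 and 3, with a median of 0.07 for shCTR9#3 against shCDC73#4. Between the CDC73 hairpins, 10 of the 25 were lower in shCDC73#4 than in shCDC73#3. Beside HSPA5, MANF, a secreted stress factor, fell by 0.48 ± 0.08 and EDEM1, of the degradation of misfolded glycoproteins, by 0.29 ± 0.07. PPP1R15A (GADD34), which restores translation after stress, had a difference of -0.33 ± 0.07 that was 0.20 (adjusted p = 0.178) against shCDC73#4 alone, as its level was 242 ± 24.7 CPM in shCDC73#3 and 116 ± 15.6 CPM in shCDC73#4 cells (SD, n = 4). Of ATF4 targets, 9 of 32 fell and 3 rose (37.5% called), with a median of -0.10. SLC7A5 and SLC1A5, amino acid transporters, fell by 0.33 ± 0.05 and 0.37 ± 0.06, and SHMT2, of mitochondrial one-carbon metabolism, by 0.27 ± 0.06. SLC1A5 overlapped in a pair of hairpins, with 273 to 302 CPM in shCTR9#3 and 214 to 295 CPM in shCDC73#4 libraries. With the hairpin as a random block, 2 of the unfolded protein response genes and 1 ATF4 target were lower.

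Cholesterol and fatty acid synthesis had the lowest median of the lists with 10 or more members tested, -0.20. Of 27 genes, 12 fell and 1 rose (48.1% called). SQLE, squalene epoxidase, had 288, 281, 291 and 289 CPM in shCTR9#3 and 283, 284, 296 and 264 CPM in shCTR9#5 libraries, against 385, 399, 441 and 442 CPM in shCDC73#3 and 285, 308, 301 and 316 CPM in shCDC73#4 libraries. The shCDC73#3 libraries stood apart and those of shCDC73#4 touched the shCTR9 range, and the fall of 0.32 ± 0.05 (adjusted p = 1.93e-05) had an adjusted p of 0.0575 with the hairpin as a random block. SREBF2, the transcription factor of the pathway, fell by 0.33 ± 0.08. The lower count ran from 10 to 13 when 1 library was left out, was 1 with the hairpin as a random block, and was 4 of 27 in EtOH, where the median was -0.20.

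Matrix, TGF-beta and integrin genes showed a fall that rested more on shCDC73#4. Of 42, 12 fell and 1 rose (31% called), with a median of -0.16, and with the hairpin as a random block 4 were lower and 0 higher. Against shCDC73#4, 15 were lower and 0 higher in shCTR9#3, and 11 lower and 1 higher in shCTR9#5 cells, with medians of -0.24 and -0.26. With shCDC73#3 as the other side, 5 were lower and 2 higher in shCTR9#3, and 7 lower and 3 higher in shCTR9#5 cells. The medians were then near 0, at -0.02 and 0.0062. Between the CDC73 hairpins, 13 of the 42 were higher and 1 lower in shCDC73#4 than in shCDC73#3. SERPINE2, LAMB1 (a laminin chain) and MMP14 (a membrane matrix protease) fell by 0.49 ± 0.07, 0.46 ± 0.08 and 0.56 ± 0.11. The count of lower genes ran from 8 to 16 when 1 library was left out. The sums of mesenchymal markers given above were also highest in shCDC73#4 libraries, and their part in this result was not tested.

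Among cell cycle genes, most of the calls in the replication list were lower. Of replication and E2F targets, 13 of 45 fell and 2 rose (33.3% called), with a median of -0.11. With the hairpin as a random block 1 was lower and 0 higher. Against shCDC73#3, 10 were lower and 2 higher in shCTR9#3, and 8 lower and 5 higher in shCTR9#5 cells. Against shCDC73#4, 11 were lower and 1 higher in shCTR9#3, and 6 lower and 0 higher in shCTR9#5 cells. The median was 0.02 for shCTR9#5 against shCDC73#3 and -0.20 for shCTR9#3 against shCDC73#4. MCM5 and MCM2, of the replicative helicase, fell by 0.47 ± 0.09 and 0.35 ± 0.07, TK1, thymidine kinase, by 0.34 ± 0.06, and PCNA, the replication clamp, by 0.29 ± 0.06. MCM2 overlapped in a pair of hairpins, with 182 to 199 CPM in shCTR9#5 and 189 to 210 CPM in shCDC73#3 libraries. Of G2 and M phase genes, 6 of 40 rose and 0 fell (15% called, under the 16.5% of all genes tested), with a median of 0.04. With the hairpin as a random block 1 was higher. BUB1, a checkpoint kinase, rose by 0.46 ± 0.07, NUF2, a kinetochore protein, by 0.41 ± 0.12 and TPX2, of the spindle, by 0.27 ± 0.06. Of double-strand break repair and checkpoint genes, 6 of 44 rose and 3 fell (20.5% called), with a median of 0.07. The direction of this list also turned with the CDC73 hairpin. Against shCDC73#3, 5 were higher and 2 lower in shCTR9#3, and 10 higher and 2 lower in shCTR9#5 cells. With shCDC73#4 as the other side, 1 was higher and 5 lower in shCTR9#3 (median -0.08), and 0 higher and 1 lower in shCTR9#5 cells (median 0.02). RAD51C, of homologous recombination, rose by 0.36 ± 0.08, while H2AX, the histone phosphorylated at breaks, and TP53BP1, which binds chromatin at breaks, fell by 0.36 ± 0.06 and 0.31 ± 0.08. RAD51C had 100 to 124 CPM in shCTR9#3 and 120 to 142 CPM in shCTR9#5 libraries. These ranges overlapped the 104 to 122 CPM of shCDC73#4 and lay above the 66.6 to 87.1 CPM of shCDC73#3. H2AX overlapped too, with 419 to 500 CPM in shCTR9#3 and 427 to 530 CPM in shCDC73#4 libraries. TP53BP1 shares 3732 exon bases with TUBGCP4. The 6 higher members became 3 without shCTR9#3 replicate 4 and 0 with the hairpin as a random block. Of replication-dependent histone genes, 2 of 11 fell, H2AC11 and H2BC12 (-0.29 ± 0.06).

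Among the other lists, immediate early genes had 8 of 22 lower and 2 higher, and 0 either way with the hairpin as a random block. Here the CDC73 hairpins parted. Against shCDC73#3, 6 were lower in shCTR9#3 and 14 in shCTR9#5 cells, and 0 were higher in each. With shCDC73#4 as the other side, 2 were lower and 6 higher in shCTR9#3, and 3 lower and 2 higher in shCTR9#5 cells. The medians were then 0.18 for shCTR9#3 and -0.09 for shCTR9#5, beside -0.21 and -0.43 against shCDC73#3. Between the CDC73 hairpins, 12 of the 22 were lower in shCDC73#4 than in shCDC73#3. FOS, for instance, averaged 85.6 ± 10 and 66.1 ± 0.88 CPM in shCTR9#3 and shCTR9#5, and 129 ± 10.2 and 67.2 ± 3.13 CPM in shCDC73#3 and shCDC73#4 cells (SD, n = 4), and its difference of -0.31 ± 0.08 was 0.16 (adjusted p = 0.353) against shCDC73#4 alone. SRF, JUND and EGR1 fell by 0.37 ± 0.08, 0.42 ± 0.11 and 0.31 ± 0.09, but each overlapped between some hairpins of the targets. SRF had 108 to 132 CPM in shCTR9#3 and 117 to 134 CPM in shCDC73#4 libraries. EGR1 had 91.2 to 113 CPM in shCTR9#3 and 84.3 to 102 CPM in shCDC73#4 libraries. JUND had 42.4 to 67.5 CPM in shCTR9#3 and 56.2 to 89.6 CPM in shCDC73#3 libraries. Of glycolysis and hypoxia genes, 7 of 35 fell and 3 rose, with GAPDH and HK1 lower by -0.25 ± 0.05 and -0.25 ± 0.06 and PGAM1 higher by 0.38 ± 0.05. Of NRF2 and glutathione genes, 5 of 25 fell and 2 rose. Lysosome and autophagy genes had 5 of 30 lower and 1 higher, with CTSL and ATG9A lower by -0.37 ± 0.06 and -0.36 ± 0.07. The direction of this list turned with the CDC73 hairpin. Against shCDC73#3, 9 were lower in shCTR9#3 and 13 in shCTR9#5 cells and 0 higher in each. Against shCDC73#4, 1 was lower in each and 7 were higher in shCTR9#3 cells, with medians of 0.19 for shCTR9#3 and 0.08 for shCTR9#5. Between the CDC73 hairpins, 13 of the 30 were lower in shCDC73#4 than in shCDC73#3. Of p53 targets, 4 of 31 fell and 2 rose, with PMAIP1 (NOXA) and FDXR lower by -0.35 ± 0.07 and -0.37 ± 0.09. The 4 became 7 without shCTR9#5 replicate 1. Both named genes overlapped in a pair of hairpins. PMAIP1 had 152 to 200 CPM in shCTR9#3 and 138 to 191 CPM in shCDC73#4 libraries. FDXR had 82.7 to 110 CPM in shCTR9#5 and 76.1 to 125 CPM in shCDC73#3 libraries. Of heat shock genes, 1 of 16 rose, HSPA6 (0.33 ± 0.08), whose difference was -0.06 (adjusted p = 0.71) against shCDC73#3 alone. Without shCDC73#4 replicate 3, 3 of the 16 rose.

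The remaining lists held few calls. Interferon-stimulated genes had 3 of 17 lower (1 without shCDC73#4 replicate 3), NF-kB and inflammatory genes 2 of 22 and Wnt genes 2 of 26, with 0 higher in each. Of actin and SRF targets 2 of 30 rose and 4 fell, of YAP and TEAD targets 1 of 24 rose and 2 fell, and of MAP kinase feedback genes 1 of 15 rose and 2 fell. Hedgehog and Notch genes had 1 of 14 higher, JAK and STAT3 genes 1 of 15 and cleavage-stage genes 2 of 15, with 0 lower in each. Such small counts moved with single libraries. The 2 cleavage-stage genes became 0 without shCTR9#5 replicate 2, with DESeq2 and with the hairpin as a random block. The lower count of Hedgehog and Notch genes ran from 0 to 3 (without shCDC73#4 replicate 2), that of Wnt genes from 1 to 4 (without shCDC73#4 replicate 2 or shCTR9#5 replicate 4) and that of NF-kB genes from 1 to 2. The higher count of MAP kinase feedback genes ran from 0 to 2 (without shCTR9#5 replicate 2), and that of JAK and STAT3 genes from 0 to 1. Of the cell type lists, 2 of 11 mesenchymal markers fell and 0 of 4 epithelial markers were called.

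**Figure D5:**
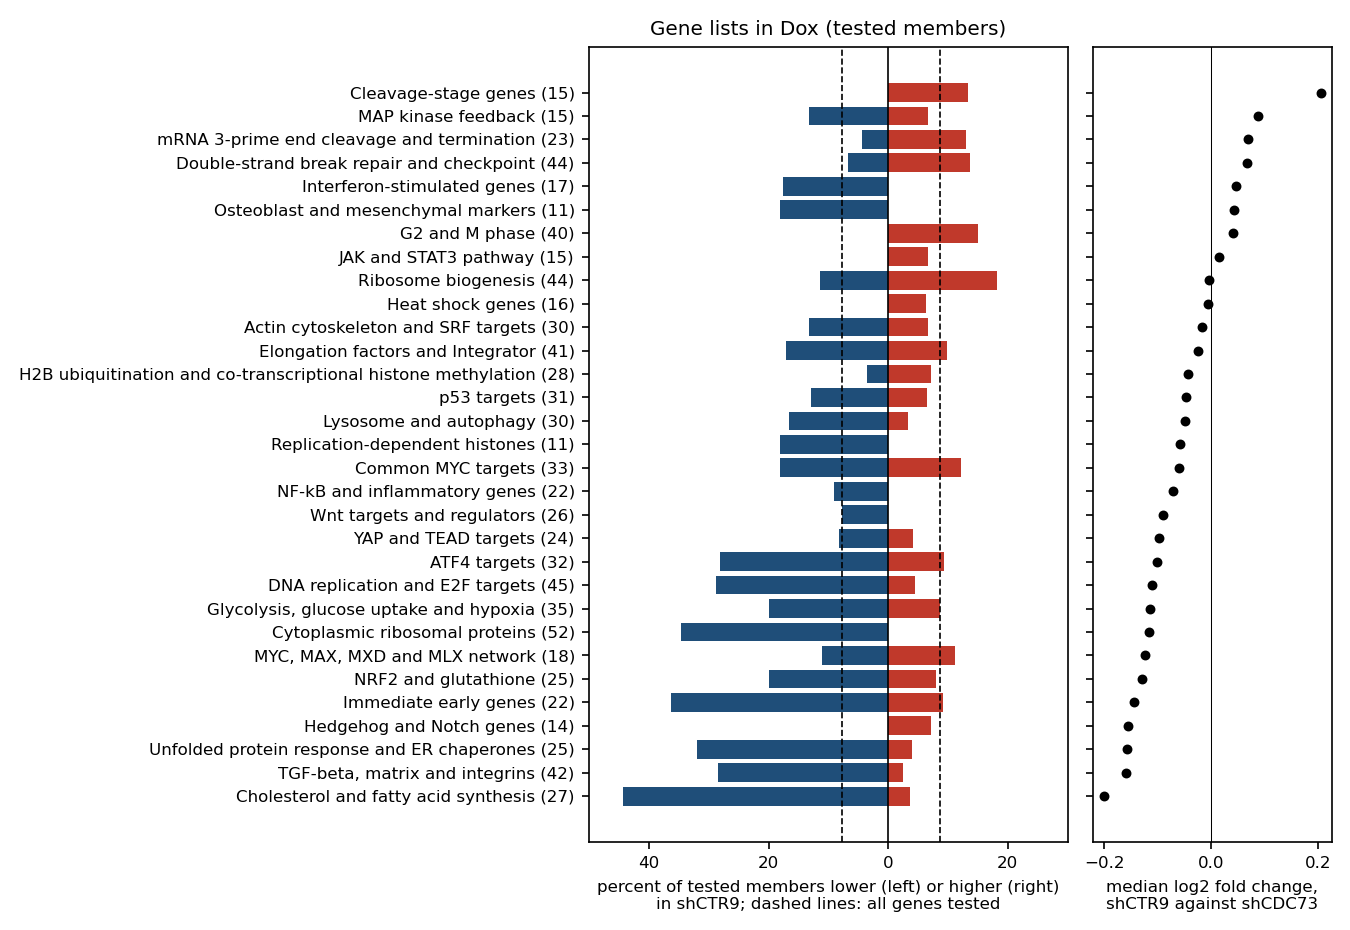
For each list with at least 10 members tested (number in brackets), the percent of tested members lower (left) or higher (right) in shCTR9 than in shCDC73 cells in Dox, beside the median log2 fold change of the list. Dashed lines mark the 7.81% lower and 8.73% higher among all genes tested. Cholesterol, immediate early, ribosomal protein and unfolded protein response genes extend furthest to the left, all with negative medians.

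The rule for naming genes also gave those that parted the hairpins of one target, and VIPR2, MLC1 and CENPT did so for both targets. VIPR2, the receptor of vasoactive intestinal peptide, averaged 20 ± 4.46 CPM in shCTR9#5 and 34.9 ± 9.73 CPM in shCTR9#3 cells, and 5.96 ± 1.77 CPM in shCDC73#4 and 39.3 ± 6.72 CPM in shCDC73#3 cells (SD, n = 4). The differences were -0.84 ± 0.20 (adjusted p = 0.0252) and -2.75 ± 0.26 (adjusted p = 2.5e-12). VIPR2 shares 2021 exon bases with LINC00689. MLC1, a membrane protein, was lower by -1.46 ± 0.31 in shCTR9#5 than in shCTR9#3 and by -3.58 ± 0.35 in shCDC73#4 than in shCDC73#3 cells (adjusted p = 0.00622 and 5.68e-12). CENPT, a kinetochore protein, was lower by -1.10 ± 0.21 and -1.01 ± 0.22 in the same order (adjusted p = 0.00207 and 0.00048). Higher in shCDC73#4 than in shCDC73#3 were SERTAD4 and NLRC5. SERTAD4 averaged 12.9 ± 4.82 CPM in shCDC73#4 and 4.46 ± 1.74 CPM in shCDC73#3 cells (1.47 ± 0.37, adjusted p = 0.00295), and NLRC5 averaged 12.5 ± 0.677 and 4.37 ± 3.82 CPM in the same order (1.46 ± 0.37, adjusted p = 0.00274). DPYSL2 and SESN1 were higher in shCTR9#5 than in shCTR9#3 cells by 0.94 ± 0.24 and 0.93 ± 0.21. Each of these calls was lost on leaving out at least 3 of the 8 shCTR9 libraries in turn, with adjusted p up to 0.181 and 0.095.

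Gene length was related to the direction. Of 2572 genes spanning under 10 kb, 123 were higher (4.78%) and 309 lower (12%) in shCTR9 cells, with a median of -0.06. Of 2949 genes spanning 10 to 30 kb, 310 were higher (10.5%) and 282 lower (9.56%), with a median of -0.0093. Of 3728 genes spanning 30 to 100 kb, 427 were higher (11.5%) and 209 lower (5.61%), with a median of 0.02, and of 2347 genes of 100 kb and more, 158 were higher (6.73%) and 109 lower (4.64%). The median under 10 kb was negative in each hairpin pair, from -0.08 to -0.03, and that of 30 to 100 kb was positive in each, from 0.02 to 0.05. In the other spans the sign turned with the CDC73 hairpin. At 100 kb and more the medians were 0.02 and 0.03 against shCDC73#3, and -0.02 and -0.0026 against shCDC73#4. At 10 to 30 kb they were negative against shCDC73#3 and positive against shCDC73#4. Library slopes of level on transcript length ran from -0.057 to 0.028 in shCTR9 and from -0.095 to 0.036 in shCDC73 libraries. Their ranges overlapped, with medians of 0.019 and 0.0045, and their part in the relation to gene length was not tested. With the library slope as a covariate, an alternative chosen after the data were seen, 2448 genes were called, 1269 higher and 1179 lower. Calls by gene length were not counted in that fit.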

How the data were processed

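RNA-seq of U2OS cells was deposited by the authors as 1 table of raw read counts per library, with 63545 gene entries; the 393 LRG entries among them were left out. Bowtie, HISAT2, edgeR and the build hg19 are named in the submitters' processing notes; the counter, annotation and strand setting were not given in the sources used here. Symbols came from GENCODE 29 and NCBI tables for 39560 entries, which hold 97.2% of the reads of the 16 libraries.

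TMM factors were computed over all 40 libraries and lay between 0.9558 and 1.026 in these 16. With a total of 877323 to 1321226 reads, 1 read is about 1 CPM, so genes of a few CPM carry large counting error. edgeR 4.0.16 in R 4.3.3 fitted a robust quasi-likelihood model with 1 mean per hairpin group to the 16 Dox libraries (12 residual degrees of freedom; filterByExpr with a count of 10 and a total of 15), and the contrast averages the hairpins of each target. The EtOH libraries had a fit of their own, and Dox minus EtOH was tested in a fit to 32 libraries. edgeR p-values were adjusted by Benjamini-Hochberg over all genes tested. limma 3.58.1 and DESeq2 1.42.0 gave alternatives, as did leaving out each replicate and library, each hairpin alone, other scalings and filters. The edgeR model was run on simulated counts with known changes, in which the hairpins of a target did not differ. That run could not test false calls that come from differences between hairpins. The p-values measure the spread between libraries of a hairpin, which may be technical, and each target has 2 hairpins.

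Genes were named by a rule: CTR9, CDC73, the other subunits and MYC, the 15 largest changes each way among genes past all hairpin pairs and libraries at a mean of at least 5 CPM, up to 4 of each list by smallest p, and 3 each way between hairpins. Not every gene that the rule allows is reported, and the other members of the 60 were named after their values were seen. The members and lists were chosen with earlier results of these data known. Overlap of exons was read from GENCODE 29, from 50 shared bases. Promoters are RefSeq's on GRCh38.p14 and were matched by symbol for 47 of the 60 genes.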

Additional observations from a re-analysis of the deposited data

Results flagged for a closer look

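Of 88 groups of 4 libraries (22 genes in 4 hairpin groups), 3 held a library far from the other 3 by Dixon's criterion, which chance alone meets in about 1 of 20 groups. GPAT3 had 53.2 CPM in shCTR9#3 replicate 3, against 81.6 to 85.5 CPM in the other 3 libraries of that hairpin. HSPA5 had 1433 CPM in shCDC73#3 replicate 2, against 1606 to 1636 CPM in the others. TNFRSF11B had 37.5 CPM in shCDC73#4 replicate 4, against 43.3 to 43.4 CPM in the others. The calls of these 3 genes between the targets held when any 1 library was left out.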

How the results depend on the processing

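The direction of most named genes held and the number of genes called did not. The 1953 genes called between the targets became 1298 in one fit to all 40 libraries, 1261 with DESeq2, 1151 with shCTR9#3 alone, 200 with the hairpin as a random block and 1 with counts summed per hairpin, and lay between 1055 and 2024 with replicates or libraries left out (1169 without replicate 3 and 1055 without replicate 4 of every group). The 74 genes between shCTR9#5 and shCTR9#3 became 176 with a replicate block, 35 in one fit to all 40 libraries, 39 with DESeq2 and 233 with the length slope as a covariate, and 22 to 119 on leaving out. The 2225 genes between shCDC73#4 and shCDC73#3 lay between 1451 and 2347 on leaving out. The 60 genes became 37 in the fit to all 40 libraries, 92 with the length slope and 17 to 72 on leaving out. Among the 60 were 14 of the 17 left without replicate 4 and 38 of the 68 found without replicate 1. The 1017 genes called in EtOH became 2170 without 3 libraries and 219 to 781 without a replicate of every group. The test of Dox minus EtOH called 0 genes in every alternative run.

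The labels do not say that the shared replicate numbers pair libraries, and they were not used as pairs. Over 24 pairs of libraries with the same number, the correlation of deviations ran from -0.0301 to 0.265 with 4 over 0.1, and 13 of 16 libraries correlated best with their own number, a hint from the data and not from the design. The replicate block gave 2459 genes for the targets, 2674 for the CDC73 hairpins and 85 for the set of 60, and changed no call of the 94 named genes.

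Of the 94 named genes, 5 lost their call in the fit to all 40 libraries (MYC, EGR1, FDXR, JUND, RPL35), 5 without replicate 4 (EGR1, FOS, INTS1, RPL3, TP53BP1), 2 without replicate 3 (MYC, NUF2) and 1 without replicate 2 (HSPA6). Against shCDC73#4 alone, 20 lost it with their direction kept and PPP1R15A and FOS with it reversed, and 89 lost it with counts summed per hairpin. Reversed values were, with shCTR9#5 alone, -0.00753 for MYC and -0.116 for PAF1; with shCDC73#3 alone, -0.0417 for MYC, -0.0717 for PAF1 and -0.0589 for HSPA6; and with shCDC73#4 alone, 0.0141 for RTF1, 0.196 for PPP1R15A and 0.162 for FOS. On leaving out, PAF1 ran from -0.075 to 0.109 and LEO1 from -0.108 to 0.496, both uncalled throughout. The causes were not tested. Depth limits genes of a few CPM, such as LEO1 and CDC73 after its knockdown.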
